A study of Mus musculus and synthetic construct with 15 samples.

Results

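Candidate heart enhancers of 400 bp were tested for activity in the atria and ventricles of newborn mice, and the 165 regions described here carry the tag GeneAVB and no other tag in their identifier and belong to the region group named "spMTF or spP300". The rule uses these 2 labels and no measured value, and it picks 165 of the 3820 regions in the pool. The tag and the group name are not spelled out in the sources used here. They were read as regions linked to genes biased between atrium and ventricle and bound by cardiac transcription factors, or by the coactivator p300, more in one chamber than in the other. The files hold reporter counts and no occupancy, so that reading could not be checked, and the chamber in which a given region was occupied is not given.

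The assay was a massively parallel reporter assay (MPRA) carried by adeno-associated virus of serotype 9 (AAV9), in which each region drives a reporter transcript that is counted by sequencing. Wild-type mice received the AAV9 library on postnatal day 0, and hearts were collected on postnatal day 7. There were 5 atrial RNA libraries and 5 ventricular RNA libraries, both labelled as cardiomyocytes of WT mice treated with the AAV9 library, and 5 libraries of DNA of the AAV9 library itself. Nothing in the labels says that the libraries of a group came from separate animals, so the p-values measure the spread between libraries, which may be partly technical. Reporter counts do not measure the expression of heart genes, so the labelled tissue and cell type could not be checked with marker genes. The reporter RNA of a region depends on how many AAV genomes reached the cells as well as on transcription per genome, and these cannot be told apart.

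Enhancers are stretches of DNA that raise the transcription of a gene on the same chromosome when sequence-specific factors bind them. In heart muscle such factors include GATA, T-box, MEF2, NKX2-5 and TEAD proteins, and p300 is a histone acetyltransferase recruited by them that is widely used as a mark of active enhancers. Atrial and ventricular cardiomyocytes share most of their contractile machinery but differ in ion channels, myosin light chains, secreted peptides and transcription factors. A reporter assay tests each region outside its own chromosomal position, so a region is named here by the closest protein-coding gene body within 100 kb of its centre, which is a statement of position only.

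On the mouse build mm10, 91 of the 165 regions (55.2%) were centred inside a protein-coding gene, against 1908 of 3820 (49.9%) in the whole pool, without a distinction between exon and intron. A further 73 were centred outside a gene, with distances measured from the centre, and 1 had no gene within 100 kb. The regions fell at 138 genes. For the 130 with an annotated start of the nearest gene in the promoter table used, the median distance to that start was 21.5 kb, against 31.8 kb over the pool. Only 1 of the 130 lay within 2 kb of such a start. These 130 regions are therefore mostly distal to it, and the others could not be placed in this way. Of the genes, 20 had more than 1 of the 165 regions (46 regions in all), numbered here along the chromosome.

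For 4 of the 165 regions a RefSeq promoter window of a long non-coding RNA covers part of the region, and for the 3 of them that were tested that part is shown, so that their letters can be set beside their values. The build of the table is GRCm38.p6, and each stretch is written 5′ to 3′ on the strand of the non-coding RNA and ends at the base before its annotated start. Capitals mark letters that match a searched motif on either strand. The letters searched were AAGGTCA and the longer TCAAGGTCA for estrogen-related receptors, TGACCT for nuclear receptors in general, AGGTGT for T-box factors, AGATAA for GATA factors, GGAATG for TEAD factors, TATTTA for MEF2 and CACTT for NKX2-5. The complement of TGACCT lies within AAGGTCA, so every match to AAGGTCA is also one to TGACCT.
Mpped2 region 1, chr2:106650365-106650548, minus strand: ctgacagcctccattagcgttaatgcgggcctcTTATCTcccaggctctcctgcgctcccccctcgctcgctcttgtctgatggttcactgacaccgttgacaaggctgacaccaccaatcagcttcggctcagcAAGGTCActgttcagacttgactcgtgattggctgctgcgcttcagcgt
Tgfbr3 region 1, chr5:107048474-107048576, plus strand: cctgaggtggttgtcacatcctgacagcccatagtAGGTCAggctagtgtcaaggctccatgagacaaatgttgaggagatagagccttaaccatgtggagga
Adrb1 region, chr19:56703599-56703776, plus strand: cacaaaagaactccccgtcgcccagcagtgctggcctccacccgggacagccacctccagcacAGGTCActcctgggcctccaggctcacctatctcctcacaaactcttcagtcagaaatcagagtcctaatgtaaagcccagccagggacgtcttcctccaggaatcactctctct

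The stretch of Mpped2 region 1 held AAGGTCA once, with TGACCT on the opposite strand within it, and the complement of AGATAA once. Among 32851 promoters the same slice held AAGGTCA in 2.89%, TGACCT in 10.5% and AGATAA in 7.05%. The stretches of Tgfbr3 region 1 and of the Adrb1 region each held TGACCT once, which the same slices held in 6.13% and 10.2% of promoters. Of these 3 regions, Mpped2 region 1 was called higher in atrium. Mpped2 encodes a metallophosphoesterase. Its region had 233, 275, 364, 181 and 350.4 CPM (counts relative to library size) in atrial RNA, against 179, 224, 226, 169 and 180.4 CPM in ventricular RNA. The values of the chambers overlapped, and the log2 ratio was 0.54 ± 0.19 (SE, adjusted p = 0.0397). Tgfbr3 region 1 near the gene of a co-receptor for TGF-beta (log2 0.40 ± 0.29, adjusted p = 0.333) and the region near Adrb1, which encodes the beta-1 adrenergic receptor (log2 0.09 ± 0.33, adjusted p = 0.868), did not pass the test.

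Library totals ranged from 877773 to 2369985 counts in atrial RNA, from 1271527 to 3781726 in ventricular RNA and from 2312820 to 2958271 in DNA, with replicate 1 the shallowest of each RNA group. The 165 regions held 4.40% to 4.92% of the RNA counts and 5.04% to 5.18% of the DNA counts. Replicate 1 stood apart in both RNA groups in the regions that were scarce in DNA, described last, so values with and without it are given where it matters. Tests covered regions whose DNA libraries averaged 10 counts or more: 123 of the 165 and 2601 of the 3820. A region is called here when its p-value, adjusted over all 2601 tested regions, is under 0.05. A CPM value scales a count by the effective size of its library, so it compares libraries and not the strength of a region, which needs its DNA beside it. A count of 0 allows up to 3 counts, which is 0.829 to 3.12 CPM depending on the library, and this covers counting error only.

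The comparison of atrial with ventricular RNA asks which of these regions drove more reporter RNA in one chamber. Of the 123 tested regions, 23 (18.7%) were higher in atrium, where 15.8% of all tested regions were, and 21 (17.1%) were lower, where 15.1% of all were. The remaining 79 were not called, and 9 of them had an unadjusted p under 0.05. Together 44 regions or 35.8% of these regions were called, against 30.9% of all tested regions, a share near that of the pool. The log2 ratios of atrium over ventricle ran from -1.43 to 1.48 with a median of 0.08, against 0.03 over all tested regions. The median size of the log2 ratio without its sign was 0.43, against 0.37. In 33 regions no atrial value fell in the range of the ventricular values, which 23.0% of all tested regions also showed, and all 33 were called. Changes of at least 2-fold were called in 6 regions higher in atrium, as in 4.88% of all tested regions, and in 5 lower in atrium, as in 3.04%. The split depends on the scaling: when libraries were scaled on the regions tagged Neg, which moved the median over all regions by 0.15 (log2), 32 were higher and 13 lower. The shares of all tested regions under that scaling were not counted, so this split cannot be set beside the pool.

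**Figure D1:**
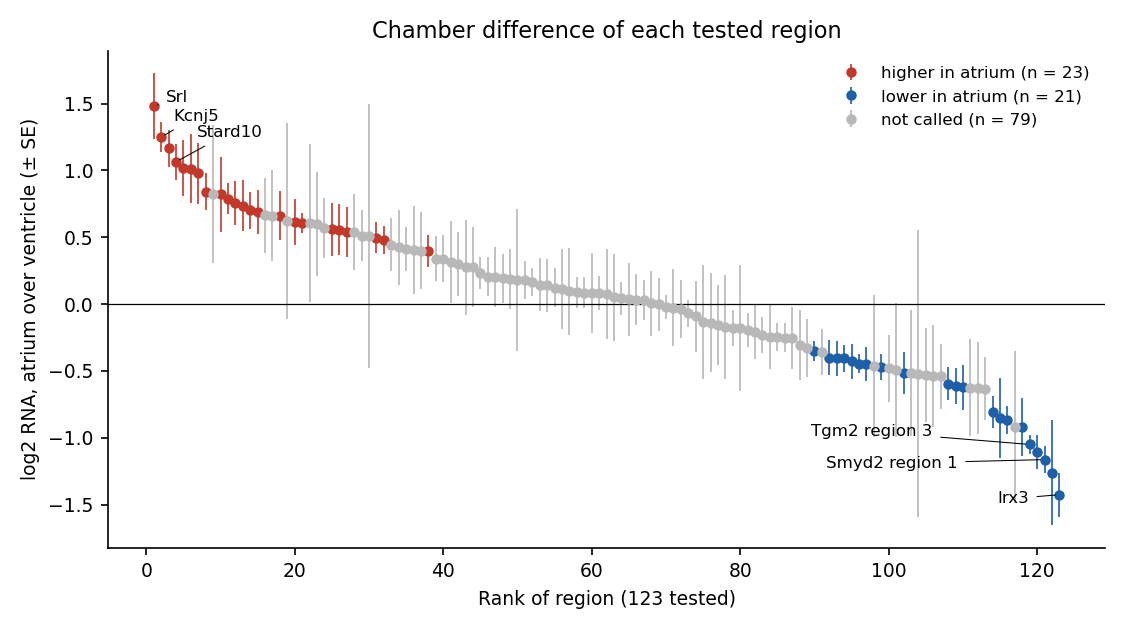
The log2 ratio of atrial over ventricular RNA is plotted for each of the 123 tested regions in order of its size, with bars of 1 standard error. Red points mark the 23 regions called higher in atrium, blue points the 21 called lower and grey points the 79 not called, and the ratios run from 1.48 at Srl to -1.43 at Irx3.

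The largest difference toward atrium was at a region centred 68 bp outside Srl (chr16:4541776-4542175), which encodes sarcalumenin, a calcium-binding protein of the sarcoplasmic reticulum. The 400 bp region therefore reaches into the gene. It had 655, 559, 432, 284 and 269 CPM in atrial RNA, against 117, 133, 186, 168 and 189.6 CPM in ventricular RNA. The ratio was 2.79-fold (log2 1.48 ± 0.25, adjusted p = 0.000413). Atrial replicates 1 and 2 were the highest and ventricular replicates 1 and 2 the lowest of their groups, so the log2 ratio was 2.47 in replicate 1 and 1.14 over replicates 2 to 5. Both chambers lay below the DNA, which averaged 978 ± 89.8 CPM (SD, n = 5).

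A region 21906 bp outside Kcnj5 (chr9:32292601-32293000) came next. Kcnj5 encodes a subunit of the acetylcholine-activated potassium channel through which the vagus nerve slows the heart. The libraries had 1132, 1194, 997, 1273 and 1555 CPM in atrial RNA, against 569, 579.8, 449, 517 and 505 CPM in ventricular RNA. Every atrial value was above every ventricular one, with a ratio of 2.38-fold (log2 1.25 ± 0.11, adjusted p = 6.03e-07). Both chambers lay below the DNA of this region, 1896 ± 207 CPM, by log2 -0.72 ± 0.11 in atrium and -1.86 ± 0.09 in ventricle. The region near Stard10 (chr7:101310504-101310903), a lipid transfer protein gene, had 1213, 1079.8, 1112, 1111 and 1494 CPM in atrial RNA, against 467, 653, 541, 749.6 and 493 CPM in ventricular RNA. These groups also did not overlap (log2 1.06 ± 0.13, adjusted p = 2.27e-05). Atrial RNA of the Stard10 region was above its DNA of 554 ± 21.7 CPM (log2 1.01 ± 0.10), whereas its ventricular RNA was not called against DNA (log2 0.07 ± 0.11). Every placement of a region against DNA is relative to the bulk of the pool and moves with the scaling. Scaling on the regions tagged Neg moved the median over all regions by 0.40 in atrium and 0.13 in ventricle (log2).

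Within Rilpl1 (chr5:124498202-124498601), a gene of protein trafficking at the primary cilium, the region averaged 558 ± 113 CPM in atrial RNA and 252 ± 17.9 CPM in ventricular RNA (SD, n = 5 each). Its log2 ratio was 1.16 ± 0.14 (adjusted p = 8.61e-06) with no overlap, and like the Stard10 region it was above DNA in atrium (log2 0.92 ± 0.13) and not called against DNA in ventricle (log2 -0.13 ± 0.10). The region within Adamtsl2 (chr2:27097845-27098244), which encodes a secreted protein of the extracellular matrix, averaged 106 ± 40.5 CPM in atrial RNA and 53.5 ± 7.76 CPM in ventricular RNA (log2 1.01 ± 0.26, adjusted p = 0.00709). A region near Tgfbr1 (chr4:47437815-47438214), the type I receptor of TGF-beta, averaged 204 ± 51.9 CPM in atrial RNA and 105 ± 29.7 CPM in ventricular RNA (log2 0.98 ± 0.23, adjusted p = 0.00365). In both, the atrial RNA was not called against DNA and the ventricular RNA was below it.

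The remaining 4 of the 10 largest non-overlapping differences toward atrium were smaller. The region near Ccl2 (chr11:82033055-82033454), a chemokine that draws monocytes, was the most abundant of the 10 in RNA, with 2847 ± 612 CPM in atrial RNA and 1666 ± 79.8 CPM in ventricular RNA (log2 0.79 ± 0.12, adjusted p = 0.000107). It was above its DNA of 1053 ± 49.9 CPM in both chambers. The region near Fbxl16 (chr17:25803087-25803486) had a log2 ratio of 0.84 ± 0.14 (adjusted p = 0.000293). Within Rfxank (chr8:70134688-70135087), which encodes a subunit of the complex that activates class II histocompatibility genes, the log2 ratio was 0.75 ± 0.16 (adjusted p = 0.00221). Mical3 encodes a monooxygenase acting on actin, and the region within it (chr6:121170990-121171389) had a log2 ratio of 0.74 ± 0.19 (adjusted p = 0.00793). The other 13 regions higher in atrium had log2 ratios of 0.40 to 1.02. The one at 1.02 lies within Celsr2, an atypical cadherin gene, and its atrial replicate 4, at 247.9 CPM, lay within the ventricular range.

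Toward ventricle, the largest difference was at a region 12683 bp outside Irx3 (chr8:91814137-91814536). Irx3 encodes an Iroquois homeodomain factor of the ventricular conduction system. Its region had 88.4, 107, 141, 91.7 and 104 CPM in atrial RNA, against 268, 304, 334, 293 and 254 CPM in ventricular RNA. The groups did not overlap, and atrial RNA was 2.69-fold lower than ventricular RNA (log2 -1.43 ± 0.16, adjusted p = 7.07e-06). Against a DNA level of 75.1 ± 7.37 CPM, the region was above DNA in both chambers, by log2 0.40 ± 0.17 in atrium and 1.95 ± 0.12 in ventricle.

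A region inside Tgm2 (chr2:158139682-158140081), the gene of a protein-crosslinking transglutaminase, had the smallest adjusted p between chambers of the named regions. It had 2487, 2969, 3198, 2985 and 2689.6 CPM in atrial RNA, against 5987, 5638, 6180.2, 6025 and 6193 CPM in ventricular RNA. The values within each chamber lay close together, and atrial RNA was 2.07-fold lower (log2 -1.05 ± 0.07, adjusted p = 3.7e-08). Smyd2 region 1 (chr1:189933504-189933903), 11209 bp outside the gene of a lysine methyltransferase expressed in heart muscle, had 222, 219, 226, 241 and 226 CPM in atrial RNA, against 547, 518, 521, 468 and 516 CPM in ventricular RNA. On the scaling of the main test, its atrial RNA was close to its DNA, 208 ± 10.6 CPM (log2 0.02 ± 0.10, not called). Its ventricular RNA was above its DNA (log2 1.31 ± 0.08). The chambers differed by log2 -1.16 ± 0.10 (adjusted p = 3.88e-07).

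A region near Dspp (chr5:104149296-104149695), known for a protein of tooth matrix, averaged 158 ± 64.4 CPM in atrial RNA and 303 ± 22.4 CPM in ventricular RNA (log2 -0.92 ± 0.22, adjusted p = 0.00473). Both regions within Ehd4, which encodes an ATPase of endocytic recycling, were lower in atrium, at log2 -0.87 ± 0.10 (adjusted p = 8.92e-06) for region 2 (chr2:120147957-120148356) and -0.85 ± 0.30 (adjusted p = 0.0422) for region 1 (chr2:120106672-120107071). The call of Ehd4 region 1 was lost under 12 of 18 alternatives, among them leaving out any ventricular library or atrial library 3, 4 or 5, with adjusted p up to 0.139.

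The region within Armh3 (chr19:45902462-45902861) had a log2 ratio of -0.61 ± 0.14 (adjusted p = 0.00257). Mfhas1 holds a region (chr8:35591441-35591840) with a larger ratio but few counts, at 6.24, 7.14, 7.89, 11.9 and 20.1 CPM in atrial RNA, against 21.1, 29.0, 25.3, 23.2 and 31.7 CPM in ventricular RNA. Its log2 ratio was -1.26 ± 0.39 (adjusted p = 0.0229), and without atrial library 2, ventricular library 2 or ventricular library 5 it was not called (adjusted p = 0.0534, 0.0543 and 0.0535). The other 11 regions lower in atrium had log2 ratios of -0.62 to -0.35. All 44 calls had the same sign in replicate 1 alone and over replicates 2 to 5. The calls were made on these same libraries, so that agreement is partly built in.

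**Figure D2:**
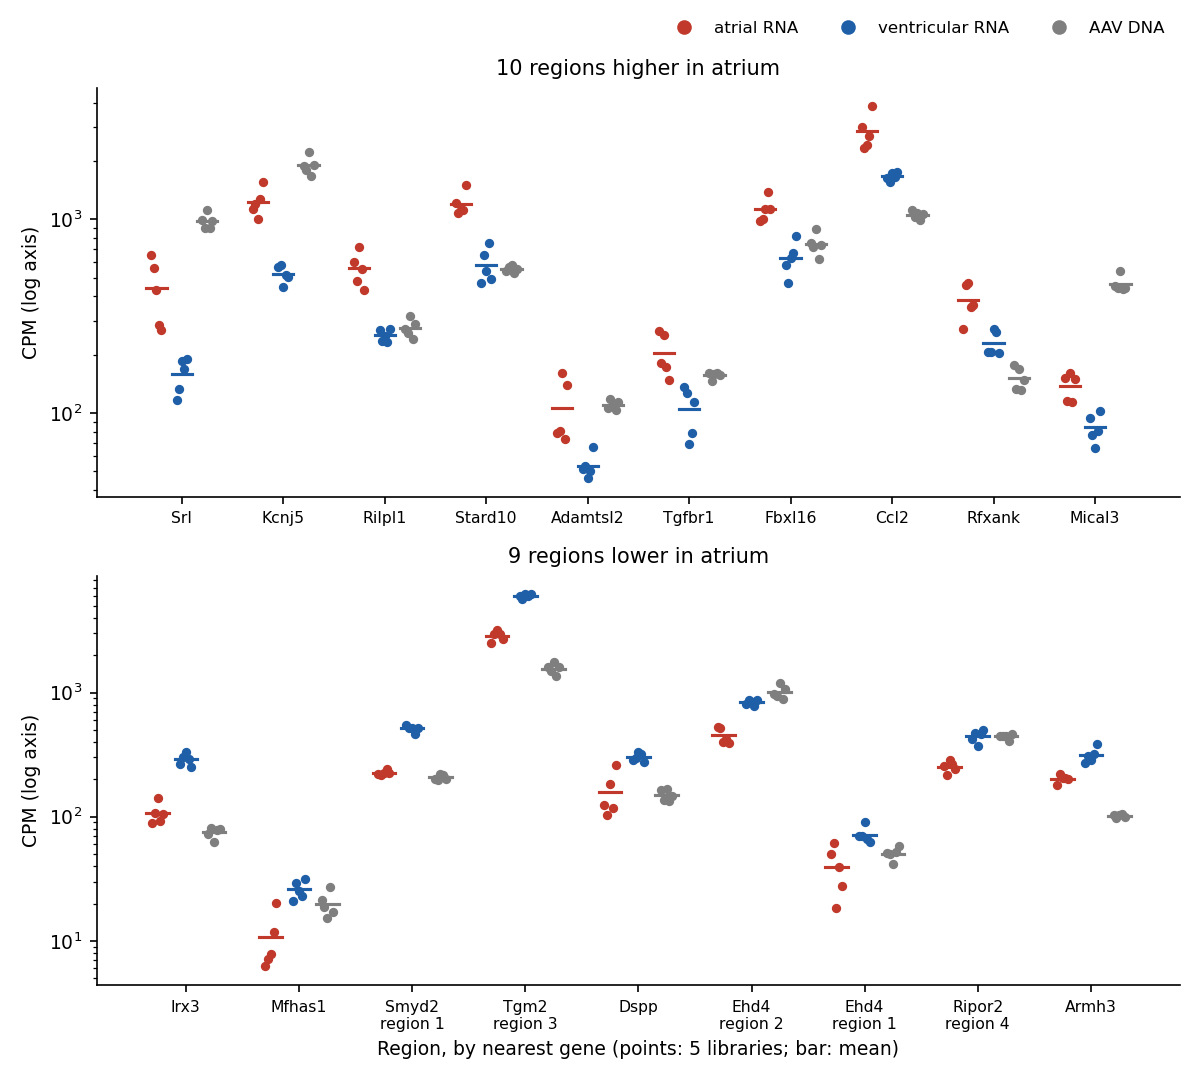
CPM on a log axis is plotted for atrial RNA (red), ventricular RNA (blue) and AAV DNA (grey) at the 10 regions with the largest non-overlapping difference toward atrium (top) and at 9 toward ventricle (bottom), with 5 points for the libraries and a bar for their mean. Atrial points lie above ventricular points at every region of the top panel and below them at every region of the bottom panel, while the DNA lies above, between or below the chambers depending on the region.

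How many regions could be called went with how well they were counted. Among regions averaging 300 or more DNA counts, 20 of 67 were higher in atrium and 13 were lower, against 290 and 191 of 1177 over the pool. With 100 to under 300 counts the numbers were 2 and 6 of 24, against 69 and 97 of 570. With 10 to under 100 counts they were 1 and 2 of 32, against 53 and 104 of 854. The median standard error of the regions not called was 0.24 on the log2 scale and reached 1.08, so differences of the size named above could have gone uncalled in the sparsest of them. Inside genes 12 of 68 regions were higher and 13 lower, against 222 and 215 of 1367 over the pool, and outside genes 11 and 8 of 54, against 158 and 136 of 1000.

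The gene lists used for the heart were drawn up with earlier results of these data known, so their counts are description only. Beside them, 15.8% of all tested regions were higher in atrium and 15.1% lower. The atrial list of 26 genes had 2 of the 165 regions, near Kcnj5 and Stard10, and both were higher in atrium. The Kcnj5 region was below its DNA in both chambers, and the Stard10 region was above its DNA in atrium only. Kcnj5 was also the single gene with a region among 32 genes of ion channels and calcium handling. The ventricular list of 24 genes had 12 regions at 7 genes: 1 was lower in atrium, 2 were higher and 9 were not called, with a median log2 ratio of 0.06 beside 0.03 over all tested regions. The one lower in atrium was the Irx3 region. The 2 higher in atrium, against the direction of the list's name, were Lbh region 1 and Prdm16 region 4. None of these regions lay nearest to a gene of the 24-gene list for energy metabolism or of the 23-gene list for other cell types of the heart, though genes outside those lists, such as Ndufs6, can have such roles.

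Lbh encodes a transcriptional cofactor known for its expression in the ventricular heart, and Lbh region 1 (chr17:72926203-72926602) lies inside the gene. It had 4016, 3728, 3885, 3684 and 3056 CPM in atrial RNA, against 2505, 2415, 2252, 2416 and 2594 CPM in ventricular RNA. Every atrial value was above every ventricular one (log2 0.61 ± 0.08, adjusted p = 1.68e-05). Prdm16, a zinc-finger regulator of the compact ventricular wall, holds Prdm16 region 4 (chr4:154626184-154626583) with 1012 ± 199.8 CPM in atrial RNA and 726 ± 10.8 CPM in ventricular RNA (log2 0.50 ± 0.11, adjusted p = 0.00353). That region was well below its DNA of 4420.0 ± 398 CPM in both chambers.

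The region near Myl2 (chr5:122088833-122089232), which encodes the ventricular regulatory myosin light chain and was the only gene of the 27-gene sarcomere and Z-disc list with a region, did not pass between chambers. It had 191, 296, 169.7, 187 and 174 CPM in atrial RNA, against 149, 193, 146, 164 and 159.9 CPM in ventricular RNA, with a log2 ratio of 0.34 ± 0.18 (adjusted p = 0.167). Scaling on the regions tagged Neg brought it past the threshold at a log2 ratio of 0.50 (adjusted p = 0.0473). The regions near Irx4 (log2 -0.63 ± 0.35, adjusted p = 0.196), a ventricular Iroquois factor, and Nppb (log2 0.03 ± 0.15, adjusted p = 0.906), the B-type natriuretic peptide, were not called either. The Nppb region, named here after its values were seen, had 162, 195, 182, 218 and 193 CPM in atrial RNA and 199, 179.6, 157, 186 and 219 CPM in ventricular RNA, both below its DNA of 565 ± 67.1 CPM. The 7 regions at cardiac transcription factor genes were all at Irx or Prdm16 genes and all on the ventricular list too. Of them, 1 was higher and 1 lower in atrium, where 15.8% and 15.1% of all tested regions were.

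Where a gene had several of these regions, more than 1 was called at few genes. Of the 20 such genes, 13 had at least 2 tested regions. A region higher in atrium was found at 5 genes and a region lower in atrium at 5 others, and no gene had both. Over all tested regions 15.8% were higher and 15.1% lower. The same count was not made for the genes of the pool, so it is not read as agreement within genes. Of the 20 genes, those with more than 1 called region were Ehd4 and Ripor2, each with 2 regions lower in atrium. Ripor2 region 4 (chr13:24643785-24644184) had 257, 216, 284, 264 and 242 CPM in atrial RNA, against 423, 471, 374, 467 and 498 CPM in ventricular RNA. The log2 ratio was -0.81 ± 0.12 (adjusted p = 0.000107). Ripor2 region 3 (chr13:24620499-24620898) had 1018 ± 71.8 CPM in atrial RNA and 1315 ± 75.7 CPM in ventricular RNA (log2 -0.35 ± 0.08, adjusted p = 0.0027), a call lost with scaling on the regions tagged Neg (adjusted p = 0.0906). Ripor2 region 2 was not called (log2 -0.33 ± 0.22, adjusted p = 0.286) and region 1 was too scarce in DNA to test.

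At Tgm2, Smyd2, Lbh and Prdm16 a called region had neighbours that were not called, and the difference between neighbours was not tested. The same held at Ccdc102a (log2 ratios of 0.62 and 0.66), Kcnk2 (-0.47 and -0.18) and Mpped2 (0.54 and -0.02). Smyd2 region 2 is shown only as the neighbour of a named region. Tgm2 regions 1 and 2 had log2 ratios of -0.03 ± 0.29 (adjusted p = 0.96) and 0.19 ± 0.23 (adjusted p = 0.592), beside -1.05 ± 0.07 at region 3. Smyd2 region 2 (chr1:189960435-189960834) had 245, 203, 218, 180.0 and 252 CPM in atrial RNA, against 244, 208, 192, 201 and 175 CPM in ventricular RNA, and its log2 ratio of 0.12 ± 0.15 was not called (adjusted p = 0.584). Lbh regions 2 and 3 had ratios of 0.19 ± 0.18 and 0.08 ± 0.30. Prdm16 regions 1, 2 and 3 had ratios of -0.21 ± 0.20, -0.14 ± 0.43 and -0.25 ± 0.11. Region 3 of Prdm16 passed the test when regions needed a mean of 100 DNA counts (log2 -0.31, adjusted p = 0.0311) and without atrial library 1 (log2 -0.31, adjusted p = 0.0406).

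**Figure D3:**
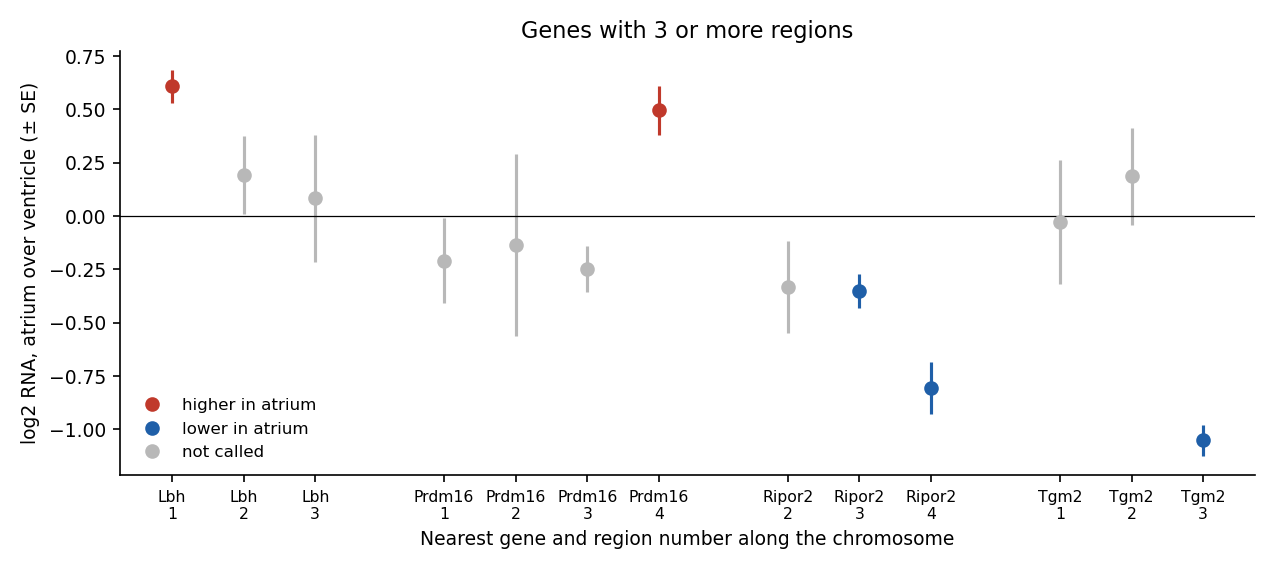
The log2 ratio of atrial over ventricular RNA, with bars of 1 standard error, is plotted for the tested regions of the 4 genes with 3 or more regions, numbered along the chromosome. One region each of Lbh (0.61) and Prdm16 (0.50) is higher in atrium, 2 of Ripor2 (-0.35 and -0.81) and 1 of Tgm2 (-1.05) are lower, and the grey ones are not called.

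Setting RNA against AAV DNA asks whether a region drove more or less RNA than the bulk of the pool for its share of the virus. In atrium, 43 of the 123 regions (35.0%) were above DNA, where 38.4% of all tested regions were, and 55 (44.7%) were below, where 36.3% were. In ventricle, 49 (39.8%) were above, where 43.4% of all were, and 55 (44.7%) were below, where 37.8% were. In either direction that made 98 regions called in atrium, where 74.7% of all tested regions were, and 104 in ventricle, where 81.2% were. The median log2 ratio of RNA over DNA was -0.20 in atrium, beside 0.04 over all tested regions, and 0.12 in ventricle, beside 0.13. The groups of values did not overlap in 78 regions in atrium, as in 60.4% of all tested regions, and in 92 in ventricle, as in 70.0% of all. These ratios are relative to the bulk of the pool and move with the scaling. Without TMM factors the median over all regions moved by 0.48 in atrium and 0.37 in ventricle (log2), and the split of these regions became 57 above and 41 below in atrium and 64 above and 42 below in ventricle. Scaling on the regions tagged Neg moved it by 0.40 and 0.13 and gave 56 above and 41 below in atrium and 53 above and 49 below in ventricle. The shares of all tested regions under these other scalings were not counted.

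The ratio over DNA moved with the amount of DNA itself. In the regions with 10 to under 100 DNA counts the median log2 ratio was 1.22 in atrium and 1.36 in ventricle, beside 1.21 and 1.43 over the pool, and in those with at least 300 counts it was -0.91 and -0.72, beside -0.66 and -0.69. Since the DNA is the divisor of the ratio, that relation is partly built in, and its part in the calls was not tested.

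**Figure D4:**
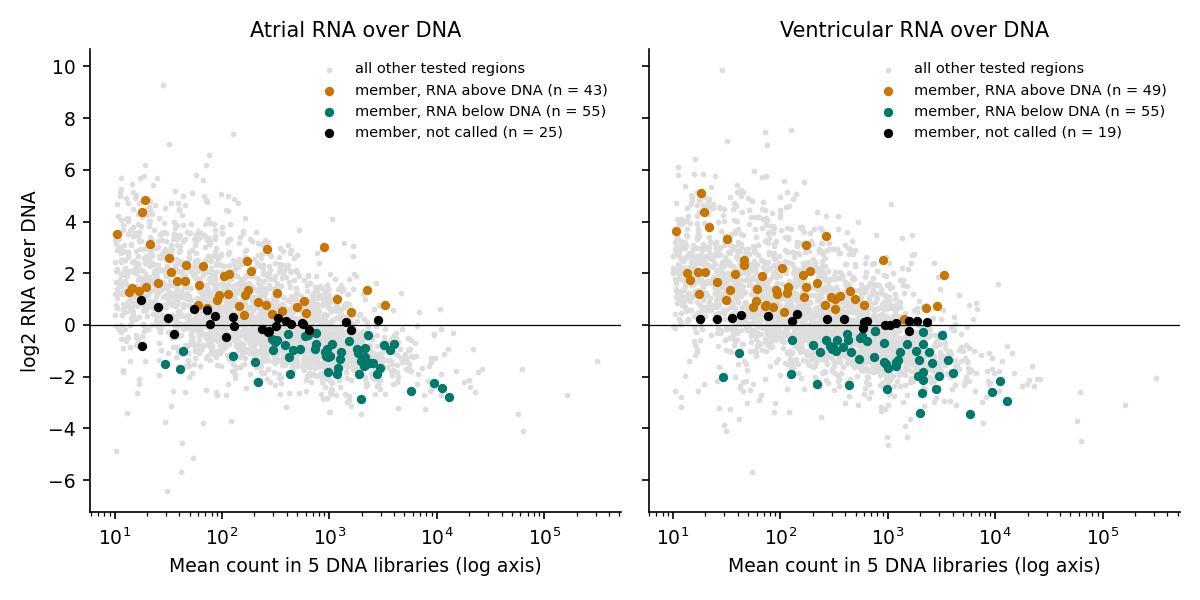
The log2 ratio of RNA over DNA is plotted against the mean count in the 5 DNA libraries (log axis) for atrium (left) and ventricle (right), with the 123 regions coloured by their call over the other tested regions of the pool in light grey. The 43 and 49 regions above DNA lie mostly at low DNA counts, and the 55 below DNA in each chamber mostly at high ones.

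Lbh region 1 had the highest ratio over DNA in each chamber among the tested regions averaging 300 or more DNA counts. Ripor2 region 3 had the highest in each among those averaging 100 to under 300. Lbh region 1, whose RNA values are given above, had 412, 409.9, 445, 414 and 426 CPM in DNA and a mean DNA count of 899. All its RNA values lay above its DNA values, with log2 3.02 ± 0.09 in atrium (adjusted p = 5.51e-12) and 2.53 ± 0.07 in ventricle (adjusted p = 1.23e-14). Ripor2 region 3 reached log2 2.95 ± 0.12 in atrium and 3.43 ± 0.10 in ventricle, over a DNA level of 122 ± 17.6 CPM. Kcnk2 region 2 (chr1:189185219-189185618) lies near the gene of a two-pore potassium channel, and it had 481 ± 47.4 CPM in atrial RNA and 675 ± 67.0 CPM in ventricular RNA, against 79.6 ± 8.01 CPM in DNA. Its log2 ratio over DNA was 2.49 ± 0.13 in atrium and 3.08 ± 0.10 in ventricle.

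The largest ratios of all rested on few DNA counts. A region within Slc22a15 (chr3:101902294-101902693), a solute carrier gene, had 196, 169, 236, 193 and 159.9 CPM in atrial RNA and 338, 318, 198, 329 and 305 CPM in ventricular RNA. Its DNA values were 8.95, 7.63, 8.18, 6.45 and 11.2 CPM, a mean of 18.2 counts, and its log2 ratios over DNA were 4.38 ± 0.20 in atrium and 5.12 ± 0.19 in ventricle. Both regions within Creb3l2, a transcription factor gene of the unfolded protein response, were also far above DNA. Creb3l2 region 1 (chr6:37398995-37399394) had 103, 287, 232, 267 and 550.0 CPM in atrial RNA and 28.4, 191, 223, 284 and 228 CPM in ventricular RNA, against 5.06, 16.2, 10.5, 6.91 and 7.91 CPM in DNA. Replicate 1 was the lowest library in each chamber, and the log2 ratio over DNA was 3.43 in atrial replicate 1 and 5.03 over atrial replicates 2 to 5, and 1.60 and 4.57 in ventricle. Creb3l2 region 2 had log2 ratios of 3.52 ± 0.32 and 3.64 ± 0.25, and the region near Mt1, a metallothionein gene, 2.57 ± 0.28 and 3.33 ± 0.18.

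At the other end, the lowest RNA for its DNA was at regions that were abundant in the virus. The region near Tgfb1 (chr7:25705835-25706234), the gene of the ligand TGF-beta 1, had 953 ± 342 CPM in atrial RNA and 797 ± 408 CPM in ventricular RNA, against 6128 ± 735 CPM in DNA. Replicate 1 was the highest library in both chambers, at 1505.9 CPM in atrium and 1514 CPM in ventricle, and all values were below DNA (log2 -2.78 ± 0.22 and -2.95 ± 0.31). The Celsr2 region (chr3:108401715-108402114) had log2 ratios of -2.54 ± 0.21 in atrium and -3.45 ± 0.12 in ventricle, and the region near Zswim4 (chr8:84198233-84198632) -2.85 ± 0.21 and -3.42 ± 0.27. Within Tceanc (chrX:166504410-166504809) the ratios were -2.44 ± 0.18 and -2.17 ± 0.27. The Srl region, higher in atrium than in ventricle, was among the 4 lowest over DNA in ventricle (log2 -2.62 ± 0.13).

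For comparison within the pool, the same tag marks 579 regions of the group "MTF or P300" and 199 of the group "TF1-2 or TF3-4", and 848 regions are tagged Neg. Beside the 23 higher and 21 lower of 123 described here (median log2 0.08), 104 of 446 tested regions of the first group were higher in atrium and 58 lower (median 0.14). In the second 21 of 146 were higher and 20 lower (median 0.00). Of 469 tested Neg regions 15 were higher and 57 lower (median -0.13). Over DNA the medians were -0.20 in atrium and 0.12 in ventricle for the 123 regions, against -0.14 and -0.13 for "MTF or P300", -0.48 and -0.47 for "TF1-2 or TF3-4" and -0.33 and -0.07 for Neg. No test of these differences was made, since regions are not replicates of a group. They do not show that the 123 regions differ from the other groups.

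The 42 regions left out of the tests had few or no counts in DNA, and 11 of them had 0 in all 5 DNA libraries. Many nevertheless had RNA, but not in replicate 1. Their joint share of a library was 0.0251% in atrial replicate 1 and 0.313% to 0.372% in atrial replicates 2 to 5, 0.0293% in ventricular replicate 1 and 0.388% to 0.424% in ventricular replicates 2 to 5, and 0.00251% to 0.00520% in DNA. In 24 of the 42, both replicate 1 RNA libraries had under 3 counts, and 18 averaged at least 100 counts over the RNA of replicates 2 to 5, with 14 in both sets. The region within Ttr (chr18:20670718-20671117), which encodes the carrier protein transthyretin, was the clearest case. It had 0, 677, 802, 860.1 and 740.5 CPM in atrial RNA and 0, 812, 915, 881 and 824 CPM in ventricular RNA, against 1 count over all 5 DNA libraries. Ndufs6 region 2 (chr13:73298968-73299367) had 0, 45.2, 86.0, 96.9 and 79.4 CPM in atrial RNA and 0, 117, 119, 97.5 and 136 CPM in ventricular RNA, also with 1 DNA count. Its direct neighbour Ndufs6 region 1 (chr13:73298568-73298967), at a gene of respiratory complex I, was plentiful in every library, with 366, 321, 330.2, 241 and 299.7 CPM in atrial RNA, 308, 288, 284, 301 and 307 CPM in ventricular RNA and 607 ± 79.5 CPM in DNA.

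**Figure D5:**
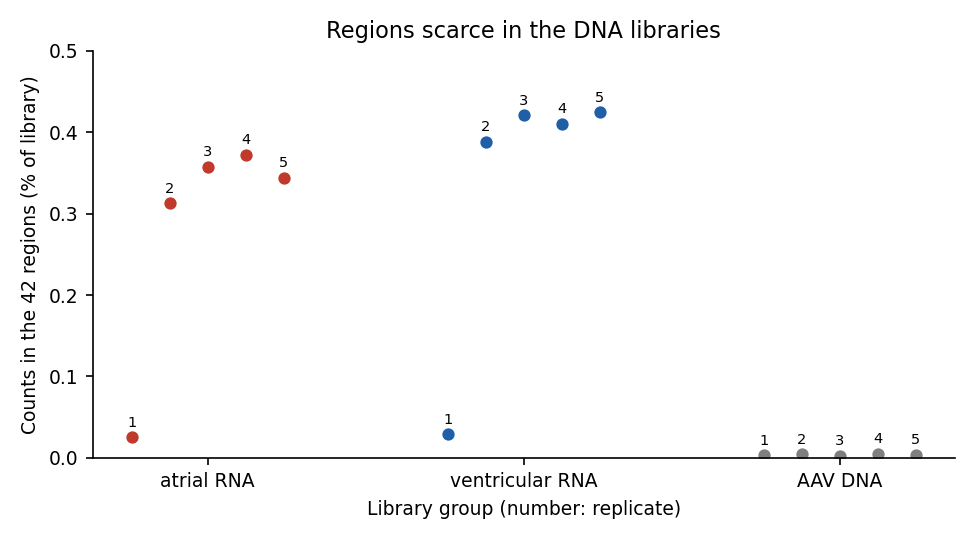
The share of all counts of a library that fell in the 42 regions scarce in DNA is plotted in percent for the 15 libraries, with the replicate number above each point. Atrial and ventricular replicates 2 to 5 lie at 0.313% to 0.424%, replicate 1 of both chambers at 0.0251% and 0.0293% and the DNA libraries at or below 0.00520%.

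Whether the DNA libraries stand for the virus behind RNA replicates 2 to 5 was not tested. It bears on every ratio over DNA, on the choice of tested regions and, where replicate 1 lacked a region's RNA, on the spread within each chamber. Among the tested regions, the sign of replicate 1 alone was that of the call over DNA in 96 of 98 regions in atrium and in 102 of 104 in ventricle. Replicate 1 was part of those calls, so the agreement is partly built in. The exceptions were the same in both chambers, near Irx5, an Iroquois factor gene, and Cdk19, a kinase of the Mediator complex. The Irx5 region had 3.12, 138, 229, 212 and 244 CPM in atrial RNA and 1.45, 149.8, 176, 111 and 149 CPM in ventricular RNA, against 24.5, 24.3, 39.1, 30.4 and 40.5 CPM in DNA. Its RNA was above DNA in replicates 2 to 5 and below it in replicate 1. The Cdk19 region had 0, 119.5, 102, 129 and 134 CPM in atrial RNA and 0, 151, 159, 217 and 177 CPM in ventricular RNA, against 10.3 ± 2.44 CPM in DNA. These 2 regions could not be compared between chambers with any precision, with standard errors of 0.99 and 1.08.

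When regions were chosen by a mean of at least 10 counts over the 10 RNA libraries instead, 157 of the 165 could be tested between chambers, 35 of them among the 42. That gave 20 higher and 19 lower in atrium, where 10.7% and 8.94% of 3592 regions were called. Of the 35, 2 were called. The region within Corin (chr5:72425366-72425765) is at the gene of the protease that activates atrial natriuretic peptide, and it had 7.28, 10.7, 4.82, 6.65 and 24.4 CPM in atrial RNA, against 28.4, 30.8, 34.9, 39.8 and 36.1 CPM in ventricular RNA. Every atrial value was below every ventricular one (log2 -1.60 ± 0.44, adjusted p = 0.0309). Lrrc3b region 1 (chr14:15440169-15440568) had 119, 121, 108, 75.5 and 103 CPM in atrial RNA, against 72.0, 68.3, 48.7, 53.9 and 57.3 CPM in ventricular RNA, again with no overlap but in the opposite direction (log2 0.86 ± 0.20, adjusted p = 0.0119). Both had counts in replicate 1, unlike the Ttr region and Ndufs6 region 2. The 7 regions that passed neither filter had too few counts to measure.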

How the data were processed

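The deposited values are counts per region for 15 libraries, raw and not normalized by the authors, as their whole numbers and unequal totals show. Per the labels' protocols, RNA and AAV DNA were both copied from a primer with a UMI (a random molecular tag) and then amplified by PCR. Bowtie2 2.3.4.3, cutadapt 2.5 and mm10 are named in the submitters' processing notes. Reads and UMI-collapsed molecules could not be told apart from the sources used here. The series table and the sample files held the same counts (0 differing values).

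Groups and replicate numbers came from the labels. Each comparison used edgeR 4.0.16 (R 4.3.3), its robust quasi-likelihood test and TMM factors, on its 10 libraries and the 2601 regions averaging 10 or more DNA counts. Benjamini-Hochberg adjustment ran over all of them. Every adjusted p in the text comes from that test unless another tool is named. Where another filter, scaling or set of libraries is named beside it, it comes from the fit under that alternative. Standard errors are the log2 fold change over the root of F. Printed CPM use TMM factors over all 15 libraries. On that scale the ratios differ from the fits by -0.10 (atrium over DNA), 0.00 (ventricle over DNA) and 0.02 (atrium over ventricle) in log2. Replicate 1 ratios add 1 CPM. Alternatives were no TMM factors, scaling on Neg regions, DESeq2 1.42.0, other count filters, a replicate block and leaving out libraries. The code was tested on simulated counts.

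Deviations of same-numbered atrial and ventricular libraries from their group means correlated at 0.23 to 0.82, all above the criterion of 0.1. Those numbers were therefore treated as pairs in the blocked alternative. The highest value, 0.82, was that of replicate 1, and libraries of different numbers were not compared. The criterion therefore does not show that same-numbered libraries form pairs. RNA and DNA libraries correlated at -0.034 to 0.059, below the criterion of 0.1. The block was nevertheless also run for the comparisons with DNA, where it kept 94 of 98 calls in atrium and 102 of 104 in ventricle. The rule for the 165 regions used labels only, but this set and the gene lists were picked for description with earlier results of these data known. Named regions are the 10 largest non-overlapping called differences between chambers in each direction, the 6 highest and 4 lowest over DNA per chamber by the same rule, up to 4 per gene list by smallest p and all regions of genes with at least 3, plus a few said to be chosen after their values were seen, and those with sequence shown or described for their scarce DNA. Of these, 1 is not reported here and was kept in the counts. Genes and start sites came from RefSeq tables of the GRCm38 build. No genome sequence was used here, so base composition and motifs of whole regions were not analysed.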

Additional observations from a re-analysis of the deposited data

Results flagged for a closer look

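Single libraries stood apart from the other 4 of their group, by Dixon's criterion at its 95% level, in 12 of 126 groups of the named regions, where chance alone flags about 1 in 20. In 4 of the 12 the library was replicate 1. In RNA these were the Tgfb1 region (1514 CPM in ventricular replicate 1, against 525.8 to 712 CPM in the others), the Tceanc region (2096 CPM in ventricular replicate 1, against 839 to 1131 CPM), Kcnk2 region 2 (564 CPM in atrial replicate 1, against 446 to 473 CPM) and Prdm16 region 2 (39.5 CPM in atrial replicate 1, against 9.16 to 16.1 CPM). Others in RNA were the Myl2 region (296 CPM in atrial replicate 2, against 169.7 to 191 CPM), Creb3l2 region 2 (100.7 CPM in atrial replicate 5, against 47.8 to 57.1 CPM), Ehd4 region 1 (89.9 CPM in ventricular replicate 3, against 62.1 to 69.8 CPM) and the Slc22a15 region (198 CPM in ventricular replicate 3, against 305 to 338 CPM). In DNA they were the regions at Tgfbr1 (146 CPM in replicate 2, against 157 to 161 CPM), Mical3 (539 CPM in replicate 3, against 435 to 451 CPM), Creb3l2 region 2 (8.76 CPM in replicate 3, against 3.50 to 4.65 CPM) and Mt1 (19.8 CPM in replicate 4, against 12.9 to 14.4 CPM).

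The 11 regions with no count in any DNA library held 0.0705% to 0.108% of the counts of the RNA libraries of replicates 2 to 5, against 0% in atrial replicate 1 and 0.000315% in ventricular replicate 1. They were in no main comparison with DNA. Regions without DNA counts entered only the alternative with no filter, where 164 of the 165 regions were tested in atrium and all 165 in ventricle.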

How the results depend on the processing

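Of the 53 results on 42 named regions, 43 were called. Of these, 40 kept their call and direction under every alternative that could be run for them. Another 3 lost it under some (the regions of Ehd4, Mfhas1 and Ripor2 named above), and none reversed. Many were named because they were called and large, so this does not describe all calls. Of all 44 calls between chambers, 35 were kept without ventricular library 2, the fewest under any alternative, and 36 with scaling on the regions tagged Neg. With no filter on DNA counts, 68 regions were above DNA in atrium, against 43 in the main test, and 74 in ventricle, against 49, since up to 165 regions entered. Scaling on the regions tagged Neg left 13 regions lower in atrium than in ventricle, against 21. Leaving out 1 library at a time gave 41 to 45 above and 49 to 56 below DNA in atrium, 44 to 51 and 52 to 57 in ventricle, and 19 to 22 higher and 16 to 22 lower in atrium than in ventricle. The replicate block for same-numbered atrial and ventricular libraries gave 25 higher and 24 lower, held all 44 calls and changed no call of a named region. Over replicates 2 to 5 alone 22 were higher and 19 lower, and DESeq2 gave 26 and 22. For the alternatives in this paragraph the shares over the pool were not counted. Regions with few DNA counts could not be retested at a mean DNA count of at least 100. Of the 32 regions under 100 DNA counts, 3 were called between chambers, against 33 of the 67 with 300 or more.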
